A study of Mus musculus with 12 samples.

Results

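The collagen genes of mouse embryonic fibroblasts were followed through loss of the chromatin protein RBBP5 and through starvation. Every symbol made of Col, a type number, the letter a and a chain number was taken, which gave 44 genes of the 25117 symbols listed. Grouped by collagen type, 11 encode fibrillar chains, 8 encode chains of basement membrane collagens (types IV, XV and XVIII), 6 encode type VI chains and 19 encode other collagens. The last set divides into 9 FACIT chains (fibril-associated collagens with interrupted triple helices), 3 short-chain network collagens, 4 membrane-spanning collagens and 3 remaining genes, Col7a1, Col26a1 and Col28a1. Values were TPM, a relative abundance scaled to a common total and corrected for transcript length, so levels of different genes can be set side by side. A gene was tested where at least 3 libraries had at least 1 TPM, which kept 26 of the 44 collagen genes and 12653 of all symbols.

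Cells of all groups carried Rbbp5 (flox/flox), alleles that Cre recombinase can delete, and Rosa26 CRE (+/+), a Cre gene at a locus active in most cell types. The KO groups had tamoxifen for 7 days and the wildtype groups had none, so tamoxifen, active Cre and loss of RBBP5 cannot be told apart. For the last 16 hours each kind of cell was kept in full DMEM, a medium with amino acids that was supplemented with serum, or in EBSS (Earle's balanced salt solution), which has glucose but neither amino acids nor serum. RBBP5 belongs to the SET1 and MLL methyltransferase complexes, which act on histone H3 lysine 4, a mark of active promoters. There were 3 libraries of poly(A) RNA in each of the 4 groups, 12 in all. Their titles number them as brep, which reads as biological replicate, but no embryo or culture is named behind any of them. P-values thus measure the spread between these libraries, and how far it is biological or technical is unknown.

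Collagens are proteins of 3 chains wound into a triple helix, built on a Gly-X-Y repeat. Fibroblasts secrete mainly fibrillar collagens: type I forms the bulk of connective tissue fibrils, type III joins it in stretchable tissues, and types V and XI set the start and width of fibrils. Type IV forms the sheet-like network of basement membranes, type VI forms beaded filaments close to cells, and FACIT collagens sit on fibril surfaces. Each chain must be hydroxylated, folded and trimmed before it can assemble, and chains of 1 type are often encoded by separate genes that need matched output.

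The targeted gene did not bear out the genotype labels in EBSS. Rbbp5 was between 25.7 and 26.2 TPM in wildtype and between 7.47 and 9.34 TPM in KO, full medium. Libraries labelled KO, EBSS had 23 to 31.9 TPM, and those labelled wildtype, EBSS had 11.8 to 14 TPM. Between the EBSS groups Rbbp5 was thus higher in labelled KO as deposited (0.99 on the log2 scale, limma adjusted p = 3.2e-05), but not with median-of-ratios scaling (0.07, adjusted p = 0.59) or quantile normalization (0.02, adjusted p = 0.9). Under none of these was it lower in labelled KO, and labelled KO in EBSS did not differ detectably from wildtype in full medium (0.01 as deposited, 0.05 and 0.07 with the other scalings). Labelled wildtype in EBSS was lower than wildtype in full medium as deposited (−0.98) but not when scaled (−0.02, adjusted p = 0.88). The EBSS groups are therefore named by what their labels say, and whether either lacked RBBP5 is in doubt wherever a direction is given. Over all tested genes, libraries labelled KO, EBSS correlated with each other at Pearson's r of 0.971 to 0.995. They reached 0.968 to 0.994 with wildtype in full medium and 0.909 to 0.918 with KO in full medium. Whether the medium label of that group holds was not tested. The libraries labelled wildtype, EBSS also stood apart in composition. Ribosomal protein genes made up 30.9% to 32.7% of their TPM and 14% to 17.4% in the other 9 libraries, and their median over tested genes lay between 10.1 and 10.5 TPM where the others lay between 17.5 and 23 TPM. Replicate 3 of that group listed 1122 tested genes at 0, where the other 11 libraries listed 12 to 229. TPM keeps no read depth, so depth is unknown and the precision of low values with it.

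In full medium the family as a whole was lower in KO. The 44 collagen genes summed to 4245, 4362 and 4367 TPM in wildtype and to 1296, 1513 and 1799 TPM in KO. Every KO library thus lay under every wildtype library, with 0.131% to 0.182% of all TPM against 0.427% to 0.44%. Libraries labelled wildtype, EBSS had 958, 1172 and 1064 TPM. Those labelled KO, EBSS had 3402, 4663 and 4643 TPM, and replicates 2 and 3 of them lay above every wildtype library in full medium. The composition of the family moved too. Basement membrane collagens were 8.96% to 9.27% of collagen TPM in wildtype and 23.1% to 23.7% in KO, while type VI went from between 15% and 15.7% to between 5.82% and 6.31%. These sums are a description with no test, and in bulk RNA fewer expressing cells and less RNA per cell cannot be told apart.

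**Figure D1:**
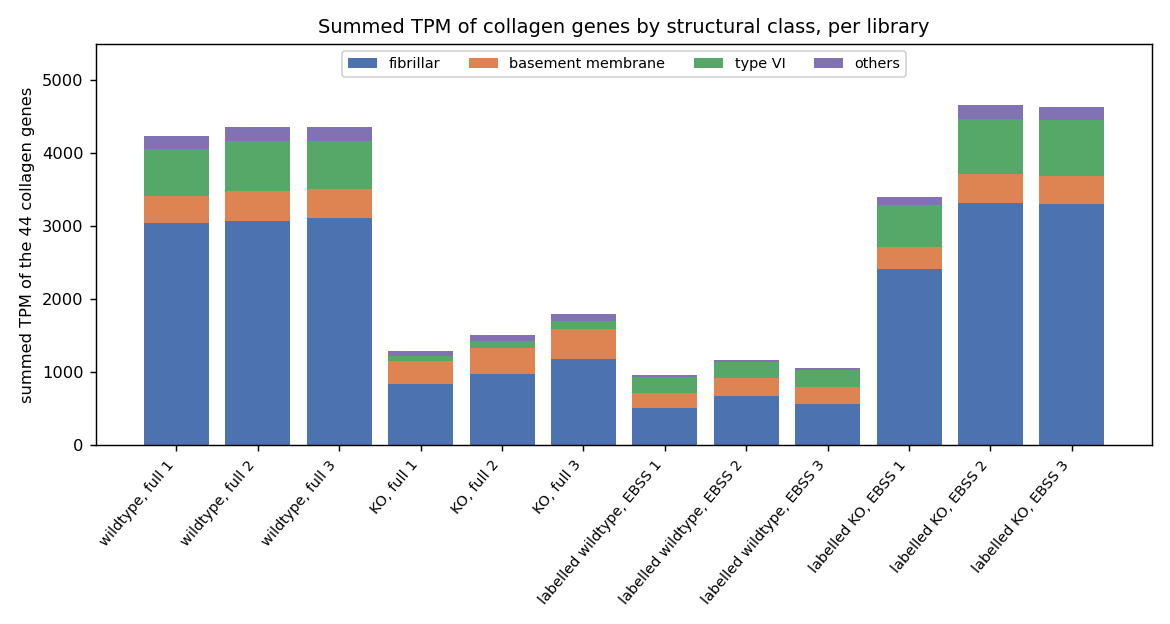
Summed TPM of the 44 collagen genes in each library (bars, 1 per library, linear axis from 0), split into fibrillar, basement membrane, type VI and other collagens. The 3 KO libraries in full medium reach 1296 to 1799 TPM and the 3 wildtype libraries 4245 to 4367 TPM, while the basement membrane part is of similar height in both.

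Sequence before the RefSeq start of 5 members is shown: Col3a1, Col5a3 and Col6a3, chosen after their values were seen for their steep falls, Col1a2 as an abundant fibrillar chain, and Col4a2 for the start region it shares with Col4a1. Runs are on the gene's own strand, 5′ to 3′, from RefSeq on GRCm38.p6. Capitals mark the letters TATAAA (of the TATA box), CCAAT (of the CCAAT box) or GGGCGG (called a GC box here), or the reverse complement of one of them. Matches are of letters only, at any distance from the start. Col3a1 (chr1:45311288-45311537, plus strand) has TATAAA 117 bases before its start and 0 CG dinucleotides in 250 bases:
Col3a1: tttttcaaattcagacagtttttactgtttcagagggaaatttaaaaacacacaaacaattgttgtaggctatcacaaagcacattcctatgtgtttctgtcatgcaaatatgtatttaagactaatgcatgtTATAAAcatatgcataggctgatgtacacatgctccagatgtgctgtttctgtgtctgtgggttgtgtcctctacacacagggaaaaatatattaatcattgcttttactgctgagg
Col5a3 (chr9:20815068-20815317, minus strand) has 17 CG, 1 CCAAT and 2 GC boxes (GGGCGG, here as CCGCCC):
Col5a3: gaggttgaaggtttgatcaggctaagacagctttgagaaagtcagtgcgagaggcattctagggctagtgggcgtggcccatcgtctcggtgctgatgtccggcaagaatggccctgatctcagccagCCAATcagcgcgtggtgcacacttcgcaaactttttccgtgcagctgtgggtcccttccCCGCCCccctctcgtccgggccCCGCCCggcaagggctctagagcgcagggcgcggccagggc
Col6a3 (chr1:90843972-90844221, minus strand) has 3 CG and holds none of these motifs:
Col6a3: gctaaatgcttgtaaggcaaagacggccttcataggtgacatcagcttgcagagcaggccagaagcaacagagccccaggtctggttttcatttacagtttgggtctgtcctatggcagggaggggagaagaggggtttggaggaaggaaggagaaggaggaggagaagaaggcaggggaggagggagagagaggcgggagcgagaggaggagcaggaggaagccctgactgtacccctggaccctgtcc
Col1a2 is shown for the 123 bases that no annotated exon covers (chr6:4505370-4505492, plus strand), which end 125 bases before the RefSeq start and hold 2 GC boxes (GENCODE places the start of the gene further upstream, so there the run is intronic):
Col1a2: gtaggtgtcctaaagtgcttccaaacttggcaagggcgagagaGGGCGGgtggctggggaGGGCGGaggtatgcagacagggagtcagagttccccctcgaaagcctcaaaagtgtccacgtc
Col4a2 is shown for 30 bases only (chr8:11312773-11312802, plus strand), because it starts inside the first exon of Col4a1, a head-to-head pair known for a shared promoter, and the CCAAT nearest to its start lies 32 bases before it:
Col4a2: CCAATttgttggcgctgccccctcccctcg

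KO against wildtype in full medium asks what changed in fed cells after tamoxifen. Of the 26 tested collagen genes, 21 were lower, 1 was higher and 4 did not pass limma's adjusted p of 0.05. Over all tested genes 35.8% were lower and 20.1% higher. The median log2 difference of log2(TPM + 1), the scale of every difference given here, was −1.21 over the 26 and −0.17 over all genes. Median-of-ratios scaling, which moves the median of all genes to 0.01, called 19 collagen genes lower and 1 higher, against 27% and 26.7% of all genes. All 9 tested fibrillar genes fell, with a median of −2.0. All 9 were also lower with median-of-ratios scaling and with quantile normalization. The latter called 3270 of all 12653 tested genes lower and 3643 higher.

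Col1a1 (chromosome 11 from 94936224 to 94953042), the major chain of type I collagen, was at 1056, 1047 and 1049 TPM in wildtype and at 215, 259 and 323 TPM in KO. The groups were far apart, and Col1a1 fell by 2.0 (SE 0.17, limma adjusted p = 2.6e-06), 3.96-fold. Col1a2, which supplies the remaining chain of the same molecule (chromosome 6 from 4504814 to 4541544), was at 641, 629 and 674 TPM in wildtype and at 297, 317 and 384 TPM in KO. Its groups did not overlap either, but the fall was smaller, at −0.97 (SE 0.16, limma adjusted p = 0.00038), 1.95-fold.

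Col3a1, type III collagen (chromosome 1 from 45311538 to 45349706), was at 587, 612 and 620 TPM in wildtype and at 33.4, 36.4 and 53.5 TPM in KO. It fell by 3.88 (SE 0.26, limma adjusted p = 5.7e-07). Its neighbour Col5a2 ends 24.6 kb away on the opposite strand and moved much less. Col5a2, a chain of the fibril-starting type V collagen, was at 425, 431 and 430 TPM in wildtype and at 226, 285 and 320 TPM in KO, a difference of −0.64 (SE 0.14, limma adjusted p = 0.0022). The interval of that difference, −0.95 to −0.34 at 95%, lies wholly above the interval for Col3a1, −4.45 to −3.31.

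The 3 type V chains differed among themselves. Col5a1, present in nearly every type V molecule, was at 171, 179 and 171 TPM in wildtype and at 68.4, 78.1 and 87.5 TPM in KO, a fall of 1.15. Col5a3, the rarer chain of type V (chromosome 9 from 20770050 to 20815067), was at 135, 155 and 149 TPM in wildtype and at 3.49, 3.56 and 5.23 TPM in KO. Col5a3 was nearly as high as Col5a1 in wildtype and the lowest of the 3 chains in KO. Its fall of 4.87 (SE 0.18, limma adjusted p = 1.7e-08), 35.8-fold, had the largest log2 size among the 26. Among fibrillar genes of lower level, Col11a1, a type XI chain that starts thin fibrils in cartilage, went from 11.4, 11.8 and 11.7 TPM to 0.438, 0.346 and 0.391 TPM. Col27a1, a cartilage-rich fibrillar collagen, went from 10.2, 12.4 and 11.5 TPM to 0.206, 0.241 and 0.252 TPM. Neither overlapped between groups, with −3.18 and −3.32, and on the linear scale these were falls of 29.7-fold and 48.8-fold. Col11a2, the partner of Col11a1, lay between 2.45 and 2.49 TPM in wildtype and between 0.538 and 0.61 TPM in KO, a fall of 1.15. The other fibrillar members were under 1 TPM in every library and were not tested: Col2a1, the main collagen of cartilage, reached at most 0.696 TPM and Col24a1 at most 0.573 TPM.

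**Figure D2:**
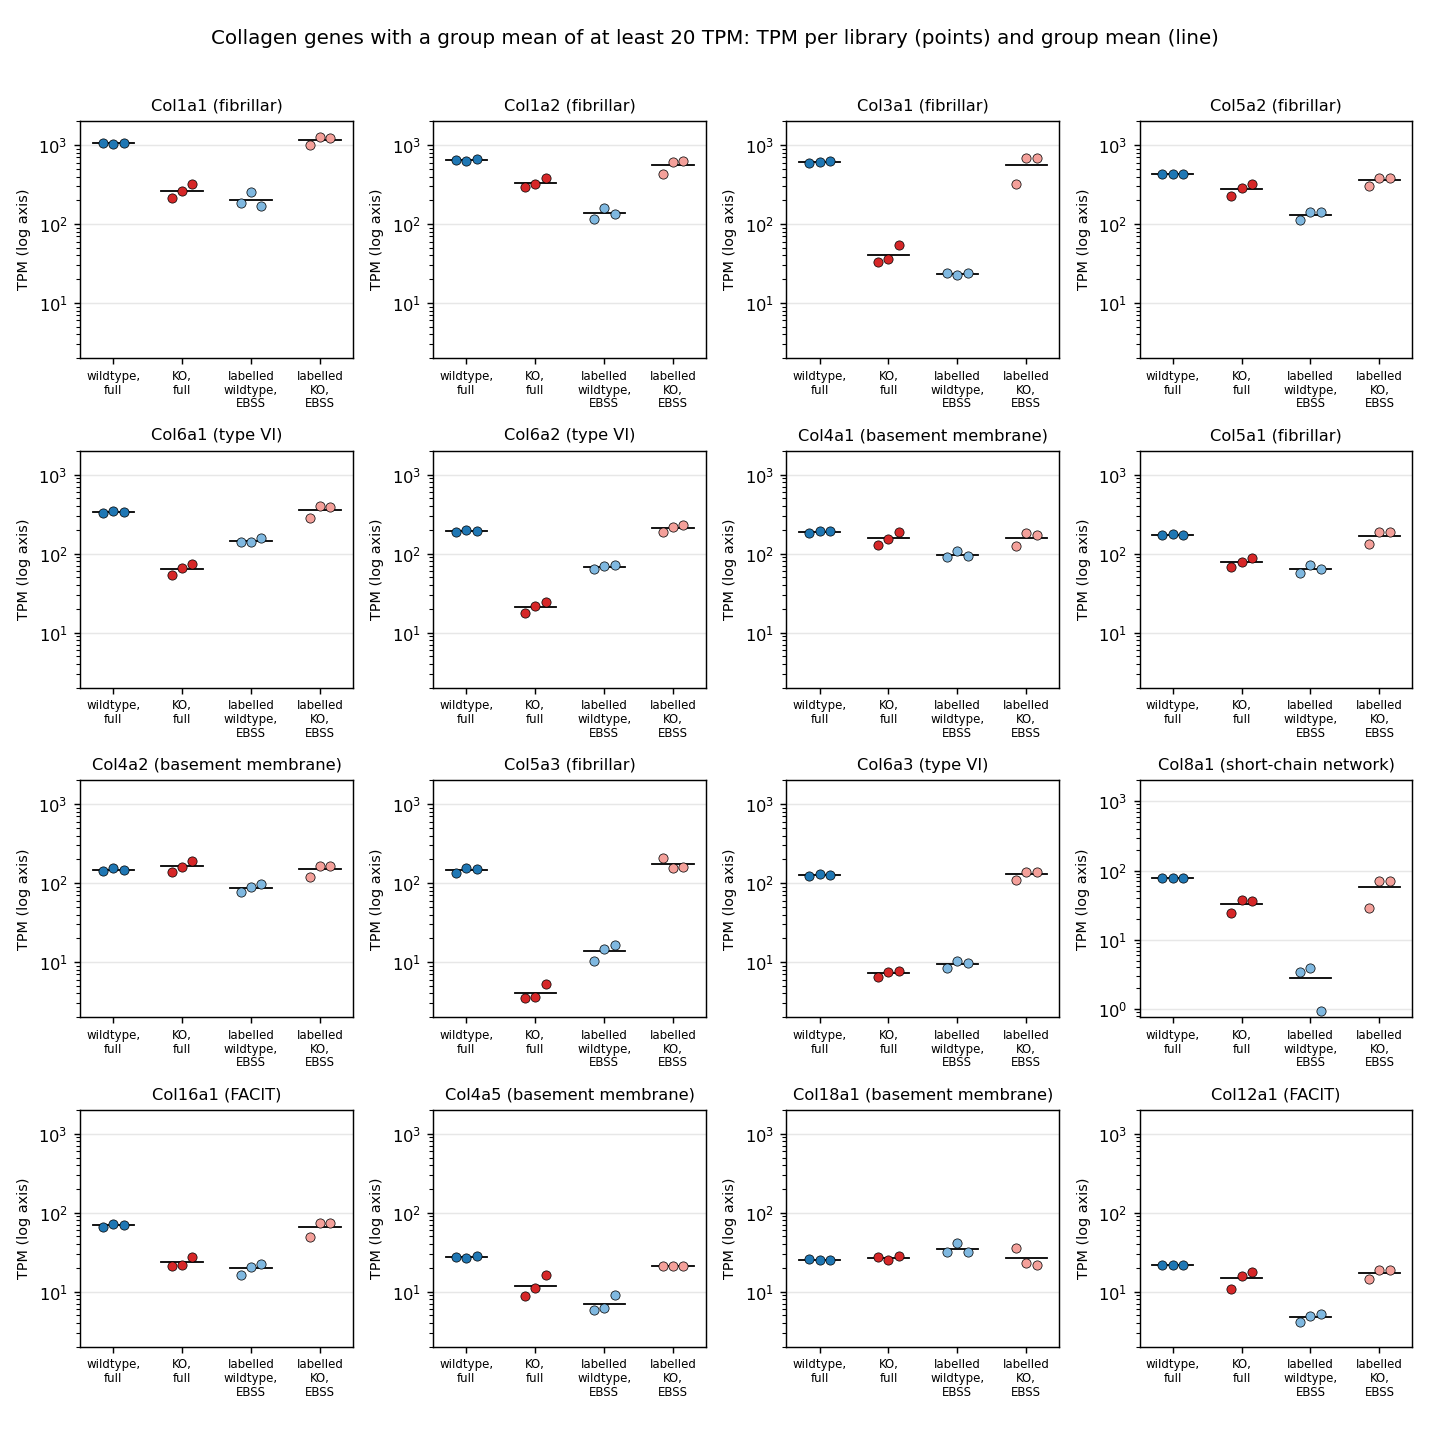
TPM of each of the 16 collagen genes with a group mean of at least 20 TPM, on log axes (points are libraries, 3 per group, and lines are group means; the Col8a1 axis reaches lower than the others). Col3a1, Col5a3 and Col6a3 are lowest in KO, full medium, and labelled wildtype, EBSS, while Col4a1, Col4a2 and Col18a1 overlap between wildtype and KO in full medium.

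Basement membrane genes were split. Col4a1 and Col4a2 encode the chains of the common type IV molecule. In wildtype Col4a1 was at 180, 192 and 193 TPM, and in KO it was at 130, 151 and 186 TPM. The groups overlapped, and the difference of −0.29 (SE 0.16, limma adjusted p = 0.14; 95% interval −0.63 to 0.06) did not pass. It passed only without replicate 3 of KO, full medium, the highest of the KO libraries (−0.42, limma adjusted p = 0.048), and in a fit on these 6 libraries alone (adjusted p = 0.048). Col4a2 was at 141, 155 and 147 TPM in wildtype and at 140, 161 and 193 TPM in KO. It too overlapped, at 0.15 (SE 0.15, limma adjusted p = 0.43; interval −0.18 to 0.47). The genes lie head to head on chromosome 8, Col4a1 from 11198423 to 11312826 on the minus strand and Col4a2 from 11312805 to 11449287 on the plus strand, with 22 bases in common.

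Col4a5 and Col4a6, a second head-to-head type IV pair, on the X chromosome with 1308 bases between them, fell together. Col4a5 was at 27.7, 26.9 and 28.4 TPM in wildtype and at 8.67, 11.1 and 16 TPM in KO, a fall of 1.19 (SE 0.20, limma adjusted p = 0.00036). Col4a6 went from 4.57, 4.74 and 4.99 TPM to 0.814, 0.831 and 1.12 TPM, a fall of 1.59. Col18a1, whose C-terminal fragment is endostatin, overlapped between groups, with 25.9, 25.1 and 25.4 TPM in wildtype and 27.1, 25 and 28.3 TPM in KO and a difference of 0.07 that did not pass (interval −0.31 to 0.45). Col15a1, its close relative, was under 1 TPM throughout and untested, with 0.849 to 0.891 TPM in wildtype against 0.128 to 0.207 TPM in KO. Col4a3 and Col4a4, the chains of kidney and lung basement membranes, reached at most 0.234 and 0.304 TPM, both in KO, full medium.

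All 3 tested type VI genes fell, and they fell unequally. Col6a1 (chromosome 10 from 76708792 to 76726168) was at 331, 351 and 334 TPM in wildtype and at 54, 66.4 and 72.8 TPM in KO, a fall of 2.39. Col6a2, 85.2 kb away on the same strand, was at 185, 201 and 195 TPM and at 17.5, 21.5 and 24.1 TPM, a fall of 3.15. Col6a3, the long chain that completes the molecule (chromosome 1 from 90765923 to 90843971), was at 123, 130 and 128 TPM in wildtype and at 6.48, 7.49 and 7.72 TPM in KO. The groups of all 3 were far apart, and Col6a3 fell the most, by 3.96 (SE 0.12, limma adjusted p = 2.5e-09), 17.5-fold. Their 95% intervals did not touch each other: −2.70 to −2.08 for Col6a1, −3.40 to −2.90 for Col6a2 and −4.21 to −3.71 for Col6a3. The chains that can take the place of Col6a3 were barely listed, with at most 0.208 TPM for Col6a4, 0.0855 TPM for Col6a5 and 0.065 TPM for Col6a6.

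**Figure D3:**
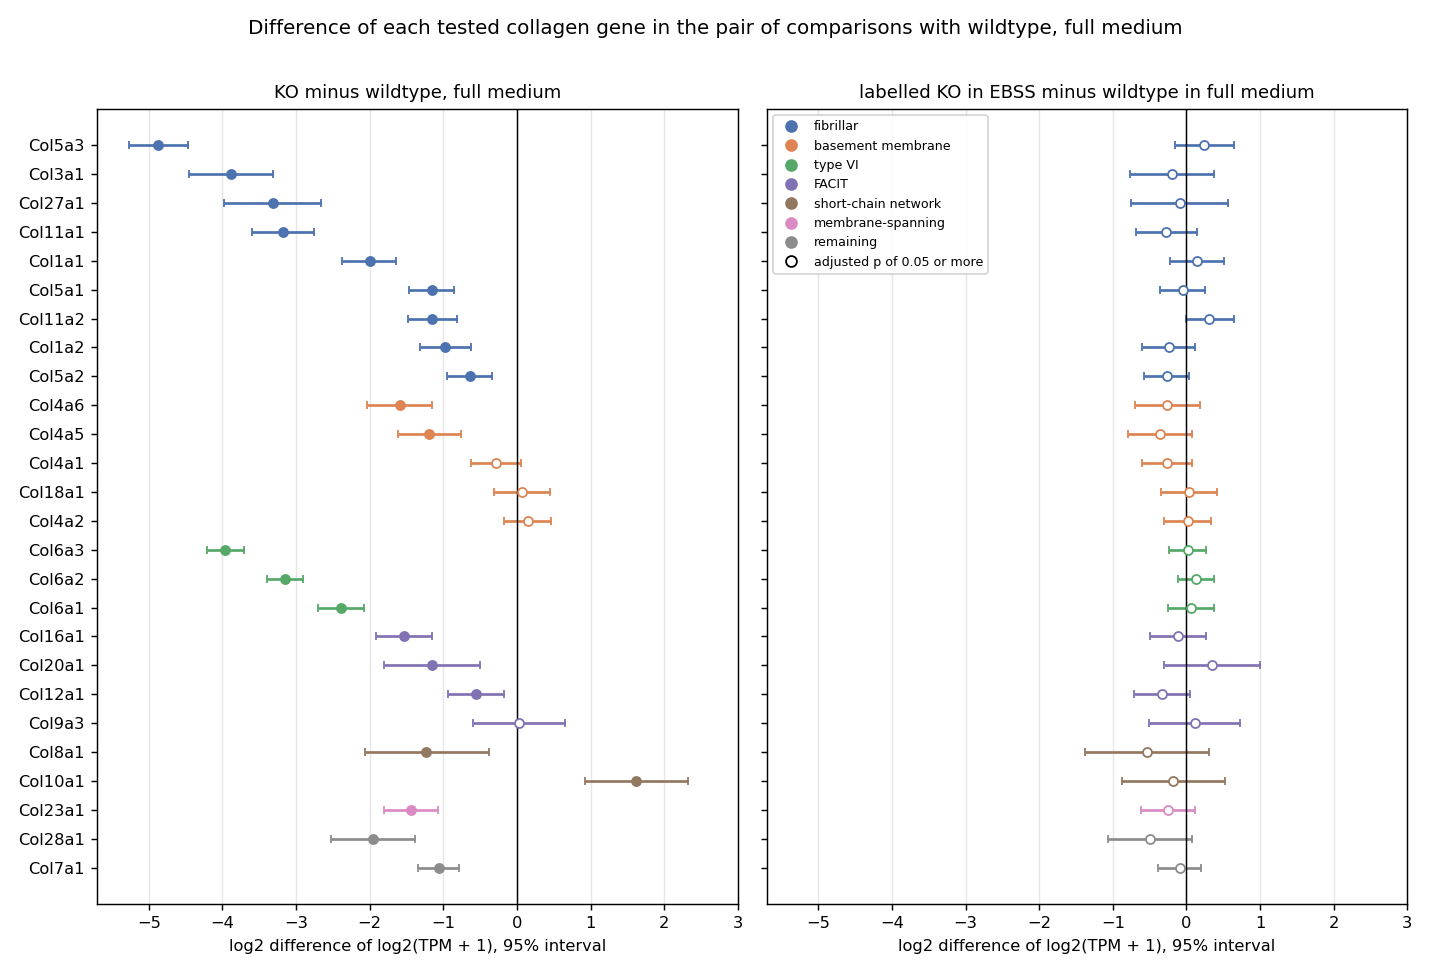
Log2 difference of each of the 26 tested collagen genes with its 95% interval, for KO against wildtype in full medium (left) and for labelled KO in EBSS against wildtype in full medium (right); colours are collagen classes and open circles did not pass an adjusted p of 0.05. On the left 21 genes are lower, from −4.87 to −0.55; on the right all 26 circles are open, between −0.54 and 0.35.

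Of the 9 other collagens tested, 7 fell, 1 rose and 1 did not pass. Col16a1, a FACIT collagen, was at 65.9, 72.8 and 70.3 TPM in wildtype and at 20.9, 22 and 27.6 TPM in KO, a fall of 1.54 (SE 0.17, limma adjusted p = 2.2e-05). Col12a1, a FACIT collagen of tendon and other loaded tissue, was at 21.6, 22 and 22 TPM and at 10.9, 15.8 and 17.8 TPM. Its fall of 0.55 was lost with median-of-ratios scaling (−0.37, adjusted p = 0.068), with quantile normalization (−0.29, adjusted p = 0.14) and without replicate 1 of KO, full medium (−0.36, adjusted p = 0.062). Col8a1, a short-chain collagen of vessel walls, was at 77.6, 76.9 and 77.3 TPM and at 24.6, 38.2 and 36.4 TPM, a fall of 1.23. That call was likewise lost with median-of-ratios scaling (adjusted p = 0.061) and without replicate 1 of KO, full medium (−1.03, adjusted p = 0.078). The groups of Col16a1, Col12a1 and Col8a1 did not overlap. The share of all tested genes without overlap between wildtype and KO was not counted, here or for the genes above.

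The lower members of this set mostly fell as well. Col7a1, which anchors epidermis to dermis, lay between 6.51 and 7.08 TPM in wildtype and between 2.53 and 3.18 TPM in KO (−1.06). The type VI-like Col28a1 lay between 6.28 and 7.16 TPM and between 0.755 and 1.15 TPM (−1.95). The membrane-spanning Col23a1 was at 2.79 to 3.38 TPM and 0.365 to 0.612 TPM (−1.44), and the FACIT gene Col20a1 at 1.69 to 1.93 TPM and 0.2 to 0.309 TPM (−1.15, but −0.63 with adjusted p = 0.077 under quantile normalization). Col9a3, a chain of cartilage FACIT, was at 1.41 to 1.52 TPM and 1.16 to 1.74 TPM, with a difference of 0.03. Col10a1, the collagen of hypertrophic cartilage, ran the other way, from 0.865, 0.661 and 0.74 TPM in wildtype to 3.15, 4.52 and 5.8 TPM in KO. It passed the filter only through its KO libraries, so its difference of 1.62 is a description.

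The remaining 10 of these collagens were untested. Among FACIT genes, Col14a1 reached 0.659 TPM, Col22a1 0.242 TPM, Col9a2 0.173 TPM and Col19a1 0.0142 TPM, each in a KO library in full medium. Col9a1 was listed at 0 in all 12 libraries. Untested members went either way in full medium. Col14a1 lay between 0.064 and 0.091 TPM in wildtype and between 0.478 and 0.659 TPM in KO. Col17a1 lay between 0.449 and 0.543 TPM in wildtype and between 0.14 and 0.195 TPM in KO. Col8a2 reached 0.595 TPM. The membrane-spanning genes Col17a1, Col13a1 and Col25a1 reached 0.543, 0.0578 and 0.0312 TPM, and Col26a1 reached 0.0757 TPM.

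Markers of the cells themselves moved beside these falls. The 9 fibroblast markers summed to 5007 to 5153 TPM in wildtype and 5214 to 5231 TPM in KO, a sum made mainly by Vim and S100a4. Yet of the 8 tested 5 were lower and 0 higher, where 35.8% of all genes were lower and 20.1% higher. The fibroblast receptor Pdgfra lay between 10.3 and 10.9 TPM in wildtype and between 0.224 and 0.263 TPM in KO, and the mesenchymal factor Prrx1 between 85.2 and 89.6 TPM and between 12.3 and 19 TPM. Macrophage and blood markers summed to 28.3 to 29.4 TPM in wildtype and 61.2 to 66.5 TPM in KO, epithelial markers to 158 to 172 TPM and 243 to 278 TPM, and skeletal muscle markers to 1.09 to 1.23 TPM and 7.41 to 8.13 TPM. Against the same shares of all genes, 1 of 2 tested markers of macrophages and blood was higher and 1 lower. Of 3 tested epithelial markers 2 were higher, and the 1 tested muscle marker, Des, was higher. The defining genes Ptprc, Epcam, Cdh1, Myod1 and Pax7 were under 1 TPM in every library. Markers of cartilage, the tissue of types II, IX, X and XI, summed to 16.8 to 18.6 TPM and 14.9 to 15.4 TPM, a sum that hides opposite moves. Of the 3 tested 2 were lower, Sox9 and Matn3, and 1 was higher, Prg4. The part of these marker shifts in the collagen result was not tested.

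Because TPM is corrected for length, chains of 1 molecule can be compared within a library. The ratio of Col1a1 to Col1a2 was 1.65, 1.66 and 1.56 in wildtype and 0.723, 0.818 and 0.84 in KO. Col1a1 was thus the more abundant chain in every wildtype library and the less abundant in every KO library. Col3a1 was 0.577 ± 0.0189 of Col1a1 in wildtype (mean ± SD, n = 3) and 0.154 ± 0.0127 in KO, and Col5a3 was 0.842 ± 0.0445 of Col5a1 in wildtype and 0.0521 ± 0.00715 in KO. Col6a1 was 3.09, 3.09 and 3.02 times Col6a2 in KO and 1.79, 1.75 and 1.71 times in wildtype. Col6a3 was 0.37 to 0.383 of Col6a1 in wildtype and 0.106 to 0.12 in KO. The ratio of Col4a1 to Col4a2 lay between 1.24 and 1.32 in wildtype and between 0.932 and 0.964 in KO, where neither gene passed alone. Col4a5 was 5.68 to 6.05 times Col4a6 in wildtype and 10.6 to 14.2 times in KO. These ratios are descriptions with no test.

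**Figure D4:**
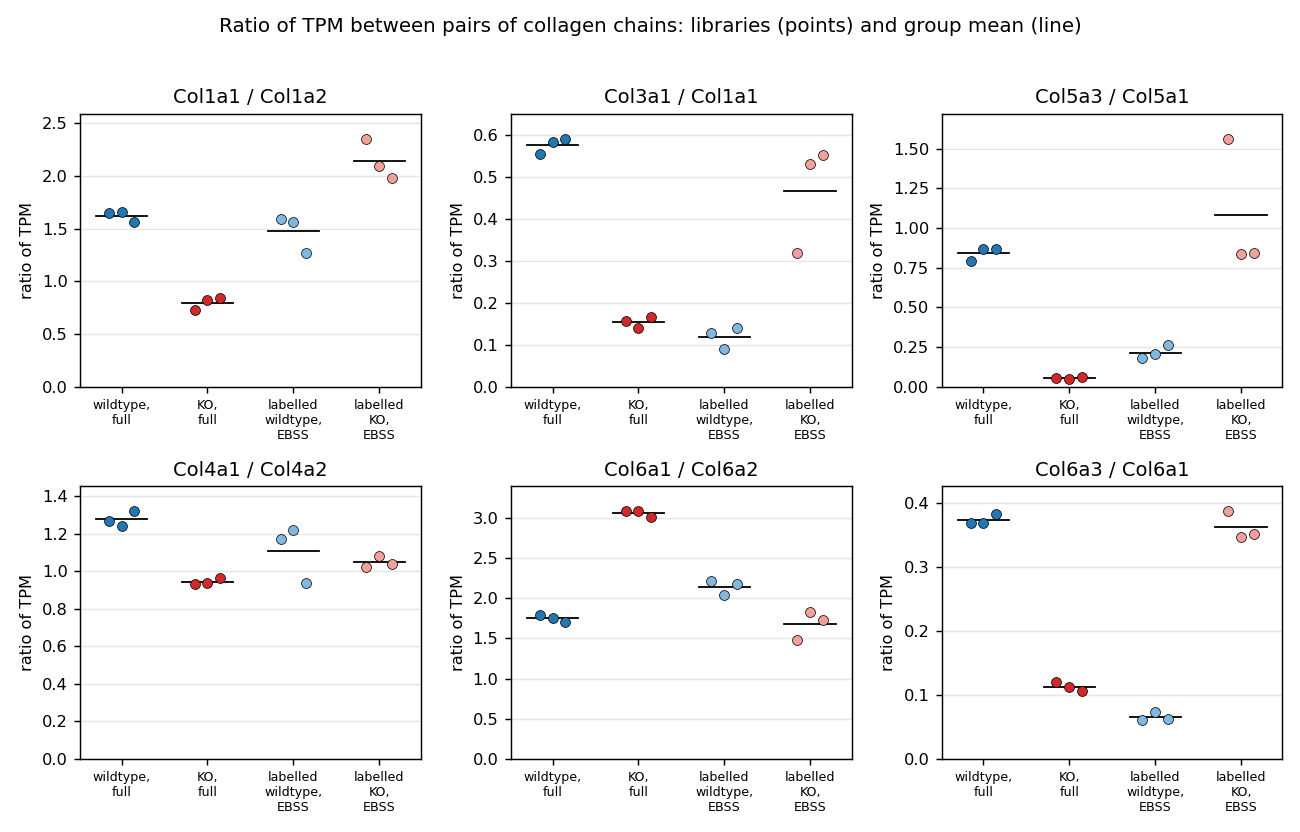
Ratio of TPM between pairs of collagen chains in each library (points) with group means (lines), linear axes from 0. In full medium no KO library overlaps the wildtype libraries in any of the 6 ratios, and Col6a1 over Col6a2 is the only ratio shown that is higher in KO.

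Genes that make, trim and bind collagen were counted against the 35.8% of all genes lower and 20.1% higher. Of the 25 genes listed for modification, 24 were tested. Of these 24 genes of modification, folding and export, 11 were lower, 1 was higher and 12 did not pass, and the median was −0.35 against −0.17 for all genes. Serpinh1, the collagen chaperone HSP47, went from a mean of 797 TPM to 226 TPM (−1.82, SE 0.17), Sparc, a matrix protein that binds collagen, from 1782 to 942 TPM (−0.92), and Ppib, a prolyl isomerase of the endoplasmic reticulum, from 933 to 585 TPM (−0.67). Colgalt1, which adds galactose to hydroxylysine, ran opposite, from 121 to 226 TPM (0.89). Plod3, a lysyl hydroxylase and glycosyltransferase, went from 190 to 145 TPM (−0.39), a call that median-of-ratios scaling ended. P4hb, the shared subunit of prolyl 4-hydroxylase, was at 413 and 387 TPM, with a difference of −0.09 that did not pass. Creb3l1, a transcription factor that drives Col1a1 in bone, went from 54.7 to 1.53 TPM (−4.47, limma adjusted p = 2.5e-09), and it was chosen for mention after its values were seen, as were P4hb and Colgalt1.

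Of 6 tested procollagen processing genes, 5 fell and 1 rose, with a median of −1.35. Pcolce, an enhancer of C-propeptide removal, went from 1397 to 641 TPM (−1.13), and Bmp1, the protease that removes that propeptide, from 195 to 55.8 TPM (−1.78). Adamts14, which trims the other end, went from 5.84 to 0.293 TPM (−2.40). Pcolce2 rose by 0.91, a call that median-of-ratios scaling ended. Of 6 tested collagen receptors, 4 fell and 2 did not pass, with a median of −0.80. Itgb1, the shared integrin subunit, was at −0.68, Ddr2, a receptor kinase for fibrillar collagen, at −0.93, Mrc2, an uptake receptor, at −2.54 and Itga10 at −1.23. Ddr1, a second receptor kinase for collagen, was at 49 and 53.3 TPM and did not pass, and was also chosen after its values were seen. With median-of-ratios scaling the counts were 9 lower and 2 higher for modification, 5 and 0 for processing, and 4 and 0 for receptors, beside 27% and 26.7% of all genes.

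In EBSS, labelled KO against labelled wildtype asks the same question in libraries labelled as starved, and the order of the groups was the reverse. Of the 26 tested, 22 were higher in libraries labelled KO, 1 was lower and 3 did not pass, where 71.9% of all genes were higher and 8.58% lower. The median was 1.56 over collagens and 0.91 over all genes. With median-of-ratios scaling, which puts the median of all genes at 0.09, 16 were higher and 2 lower, against 34.6% and 29.2% of all genes. Of the 9 fibrillar genes 8 were higher and 1 lower under either. Col3a1 was at 318, 678 and 685 TPM in labelled KO and at 23.8, 22.5 and 23.7 TPM in labelled wildtype, a difference of 4.45 (SE 0.26, limma adjusted p = 6.6e-08) and of 3.50 when scaled. Col6a3 was at 109, 140 and 139 TPM and at 8.49, 10.2 and 9.72 TPM, a difference of 3.63.

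Most other abundant chains had the same order of groups. Col1a1 was at 1000, 1277 and 1239 TPM in labelled KO and at 184, 251 and 171 TPM in labelled wildtype (2.54), and Col1a2 was at 426, 612 and 627 TPM and at 116, 160 and 135 TPM (2.00). Col5a3 was at 208, 156 and 159 TPM and at 10.3, 14.6 and 16.5 TPM (3.58). Col5a1 was at 133, 187 and 188 TPM and at 57.3, 71.5 and 63.7 TPM (1.38), and Col5a2 at 304, 384 and 386 TPM and at 113, 142 and 140 TPM (1.43). None of these overlapped, and the share of all tested genes without overlap between the EBSS groups was not counted. Col6a1 was at 280, 402 and 394 TPM and at 140, 141 and 157 TPM (1.27, but 0.31 with adjusted p = 0.08 when scaled), and Col6a2 at 189, 219 and 228 TPM and at 63.1, 69.1 and 72.1 TPM (1.62). Col8a1 was at 29.3, 71 and 71.2 TPM and at 3.49, 3.99 and 0.953 TPM (3.94), Col16a1 at 49.2, 73.1 and 74.3 TPM and at 16.1, 20.7 and 22.1 TPM (1.68), and Col12a1 at 14.3, 18.7 and 18.9 TPM and at 4.13, 4.92 and 5.24 TPM (1.66).

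Other members followed that order only under some scalings, or not at all. Col4a1 was at 123, 181 and 172 TPM in labelled KO and at 90.2, 108 and 92 TPM in labelled wildtype, and Col4a2 at 120, 167 and 165 TPM and at 76.9, 89 and 98 TPM. Both were called higher, at 0.69 and 0.76, but median-of-ratios scaling turned them to −0.27 and −0.20, and neither then passed. Their relative Col4a5, at 21.4, 21.3 and 21.2 TPM against 5.83, 6.18 and 9.05 TPM, was higher both as deposited (1.5) and when scaled (0.61). Col18a1 was at 36.1, 22.8 and 21.8 TPM and at 31.3, 40.9 and 31.8 TPM, overlapping, with a difference of −0.38 that did not pass as deposited and was −1.32 (adjusted p = 3.1e-05) when scaled. Col11a2 was the 1 gene called lower in labelled KO, with 4.25, 2.93 and 2.87 TPM against 4.79, 4.62 and 6.2 TPM (−0.52, SE 0.15, limma adjusted p = 0.0074), a call lost in a fit on the 6 EBSS libraries (adjusted p = 0.06). Col28a1 was at 2.22, 6.09 and 6.21 TPM in labelled KO and listed at 0 in replicates 2 and 3 of labelled wildtype.

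Replicate 1 of labelled KO, EBSS differed from its group. Among the 16 abundant collagen genes it was the lowest of its 3 libraries for 13 and the highest for 3, Col5a3, Col18a1 and Col4a5, with a median ratio of 0.745 to the mean of the other libraries. Replicates 2 and 3 were close to each other throughout. Without replicate 1, the comparison of the EBSS groups had 22 collagen genes higher and 2 lower. Of all 12653 tested genes 8835 were then higher and 1224 lower. Col18a1 then passed, at −0.60 (limma adjusted p = 0.00078), as it did at −0.44 without replicate 3 of labelled wildtype, EBSS. Of the 9 fibroblast markers replicate 1 was the lowest of its group for 6, among them S100a4 at 484 TPM against 1658 and 1787 TPM, and the highest for 3, among them Pdgfra at 15.6 TPM against 10.1 and 10.3 TPM.

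Genes of collagen biosynthesis are read against the 71.9% of all genes that were higher between the EBSS groups, or 34.6% when scaled. Of the genes of modification, folding and export 23 of 24 were higher in labelled KO and 1 was lower, of processing 6 of 6 were higher, and of receptors 5 of 6. With median-of-ratios scaling 15 of the first list were higher and 1 lower, 6 of the second were higher, and 2 of the third, so the receptor counts lay near the shares of all genes under both. The 1 lower gene was Tmem38b, an ion channel of the endoplasmic reticulum (7.75 against 39.4 TPM, −2.12), named after its value was seen. Fibroblast markers summed to 2729 to 4905 TPM in labelled KO and 3989 to 4876 TPM in labelled wildtype, and 6 of 8 were higher in labelled KO, a share near that of all genes. Epithelial markers summed to 99.6 to 144 TPM in labelled KO and 212 to 229 TPM in labelled wildtype. Of these 2 of 3 tested were lower, where 8.58% of all genes were lower. Cartilage markers summed to 17.2 to 23.3 TPM and 7.09 to 8.25 TPM, with 3 of 3 tested higher. Replicate 3 of labelled wildtype stood apart from replicates 1 and 2 in Pdgfra (11.9 against 2.84 and 2.49 TPM), the endothelial Pecam1 (4.48 against 0.406 and 0.773 TPM) and the macrophage gene Adgre1 (3.38 against 0.292 and 0.135 TPM). The part of these markers in the collagen difference was not tested.

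EBSS against full medium compares the media within each genotype label, and rests on the labels of both medium and genotype. Within labelled wildtype 22 collagen genes were lower, 2 were higher and 2 did not pass, against 71.8% and 9.25% of all genes, with medians of −1.74 for collagens and −0.94 for all genes. With median-of-ratios scaling 18 were lower and 2 higher, against 35.4% and 30.7% of all genes. Col3a1 (−4.64), Col8a1 (−4.47) and Col6a3 (−3.61) differed most, and Col11a2 (0.83) and Col18a1 (0.42) were higher. The Col18a1 call was lost in most fits that left out a library, among them that without replicate 2 of labelled wildtype, EBSS (0.30, adjusted p = 0.15), but the difference was larger when scaled, at 1.40 (adjusted p = 1.8e-05) with median-of-ratios and 1.34 with quantile normalization. Within labelled KO 19 collagen genes were higher, 1 was lower and 6 did not pass, against 33.3% and 20.9% of all genes, and 18 and 1 when scaled, against 26.2% and 25.8%. Col5a3 was 5.11 higher, Col6a3 3.97, Col3a1 3.68, Col6a2 3.28 and Col27a1 3.24. The 1 lower gene was Col10a1 (−1.79), which passed the filter only through KO, full medium. The comparisons of groups share libraries, so their values are not independent of each other.

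The test of the difference between the genotype differences, EBSS minus full medium, was positive for 23 collagen genes and negative for 1, against 64.2% and 12.5% of all genes. With median-of-ratios scaling 20 were positive and 3 negative, against 34% and 32.8% of all genes. Quantile normalization also gave 20 and 3 collagen genes, against 4068 and 4346 of all 12653 tested genes. The highest value as deposited was 8.44 for Col5a3. The 1 negative value, −1.87 for Col10a1, is a description, since that gene passed the filter only through KO, full medium.

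The medium and the genotype label were also exchanged, since Rbbp5 was not lower in labelled KO in EBSS under any scaling and was higher there as deposited. Labelled KO in EBSS against wildtype in full medium called 0 of 26 collagen genes with limma as deposited and with either other scaling, 0 also at an unadjusted p under 0.05 as deposited, and 1 of 26 at that unadjusted p with either scaling. The share of all genes at that unadjusted p was not counted. A fit on these 6 libraries alone called Col4a5 lower (−0.36, adjusted p = 0.042). Of all tested genes 0.134% passed as deposited, 0.111% with median-of-ratios scaling and 0.443% with quantile normalization. The share was 1.97% in the fit on 6 libraries that called Col4a5, and 1.73% when replicate 3 of labelled wildtype, EBSS, which enters here only through the shared spread, was left out (0 collagen genes lower). Differences ran from −0.54 for Col8a1 to 0.35 for Col20a1, and the 95% interval was −0.22 to 0.51 for Col1a1, −0.76 to 0.37 for Col3a1, −0.16 to 0.64 for Col5a3 and −0.24 to 0.27 for Col6a3. A p that misses the threshold does not show that the levels were equal.

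Labelled wildtype in EBSS against KO in full medium, the other exchanged pair, depended on the scaling. As deposited 7 collagen genes were higher and 12 lower, against 11.6% and 63.5% of all genes, and with median-of-ratios scaling 13 were higher and 5 lower, against 30% and 33.2%. Higher under both were all 3 type VI genes, Col6a1 by 1.18 (2.00 scaled), Col6a2 by 1.66 (2.47) and Col6a3 by 0.35 (1.1), and the fibrillar Col5a3 by 1.53 (2.29), Col11a1 by 0.88 (1.37), Col11a2 by 1.98 (2.63) and Col27a1 by 0.90 (1.33). The Col6a3 call as deposited was lost without replicate 1 of KO, full medium (0.28, adjusted p = 0.062) or replicate 2 of labelled wildtype, EBSS (0.30, adjusted p = 0.058). Lower under both were Col1a2, at −1.28 (−0.45 scaled), Col8a1, at −3.25 (−2.61), Col12a1, at −1.44 (−0.72), Col10a1, at −1.54 (−1.12) with the same limit, and Col28a1, whose labelled wildtype libraries 2 and 3 in EBSS were listed at 0. Col1a1 turned from −0.39 (adjusted p = 0.049) to 0.43 (adjusted p = 0.042) with the scaling, so no direction can be given for it.

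Promoter windows from 250 bases before to 50 after the start were listed in RefSeq for 35 of the 44 collagen genes, 22 of them tested. TATAAA was found in 14.3% of the 35, on either strand, against 14.2% of 27025 genes with a window, and CCAAT in 34.3% against 37.9%. GGGCGG was more frequent, in 62.9% against 35.9%, and the median window held 12 CG against 7. The collagen windows were also richer in G and C, with a median of 60% against 52.7%. The 27025 genes include genes that were not tested here. A match describes these letters only, not binding by a factor. Across the 22 tested genes, which are not independent replicates, the CG count and the difference in KO gave a Spearman's rho of 0.31 and a Pearson's r of 0.26. The highest counts among tested genes were 37 for Col4a1, 34 for Col5a1 and 33 for Col4a2, with differences of −0.29, −1.15 and 0.15. Genes that fell steeply had few or many, with 0 CG for Col3a1, 3 for Col6a3, 18 for Col27a1 and 20 for Col5a3. The TATAAA of Col3a1 and the GC boxes of Col5a3 can be read in the runs printed above.

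**Figure D5:**
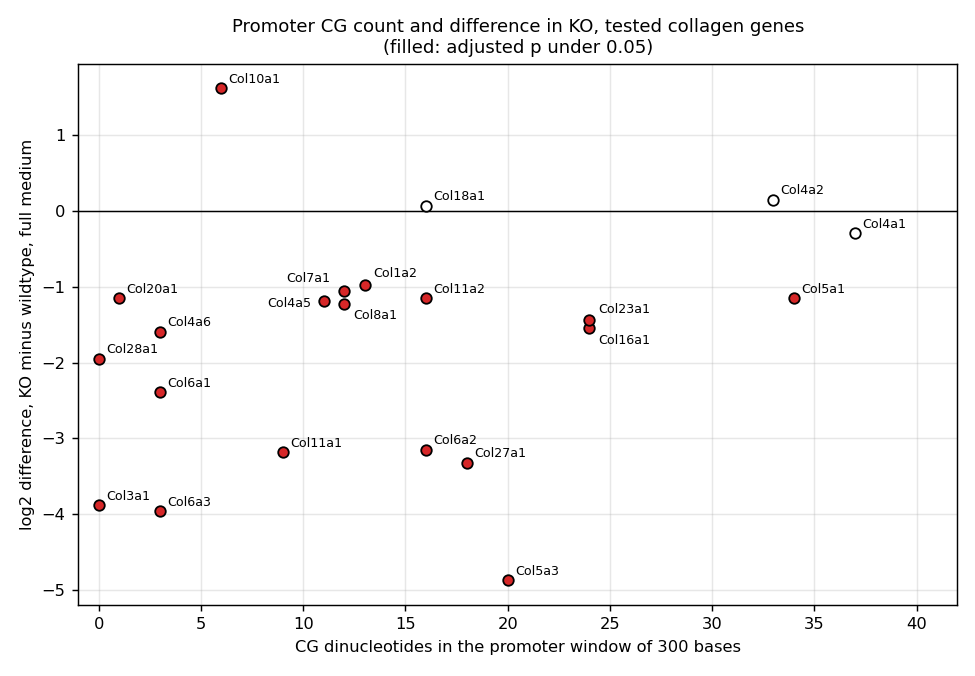
Number of CG dinucleotides in the 300-base promoter window (horizontal) and log2 difference between KO and wildtype in full medium (vertical) for the 22 tested collagen genes with a listed promoter; filled points passed an adjusted p of 0.05. Col4a1 and Col4a2 lie at the right near 0, and steep falls occur from 0 CG (Col3a1) to 20 CG (Col5a3).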

How the data were processed

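The TPM values of 25117 gene symbols in 12 libraries were deposited by the authors, who quantified reads with Salmon on mm10 per the submitters' processing notes; the version and transcript annotation were not given in the sources used here. TPM sums were 92.3% to 99.4% of the scale's total, and read depth is unknown.

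Symbols with at least 1 TPM in at least 3 libraries were tested (12653; 4859 were at 0 in all libraries). log2(TPM + 1) was fitted with limma 3.58.1 (R 4.3.3, trend) over all 4 groups, with Benjamini-Hochberg adjustment over all tested genes and a threshold of 0.05. A fold change on this scale understates the change of low genes. Intervals cover 95%. Every adjusted p is from limma. The procedure was tested on simulated data.

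Collagen genes with a group mean of at least 20 TPM are given library by library, other tested members by range or mean, and untested members by their highest TPM. For the untested Col14a1, Col15a1 and Col17a1 the ranges in full medium are given too. Of each pathway list up to 4 called genes of highest mean TPM are named. The members and lists were chosen with earlier results of these data known. Col3a1, Col5a3 and Col6a3 were picked for printed sequence after their values were seen. Gene positions are from GENCODE on GRCm38, and promoters from RefSeq on GRCm38.p6. Alternatives changed the pseudocount, filter, scaling, libraries fitted and replicate block. Tables were handled with Python 3.11.15 and pandas 2.3.3.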

Additional observations from a re-analysis of the deposited data

Results flagged for a closer look

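The difference between KO and wildtype was not the same in EBSS as in full medium for 24 of the 26 tested collagen genes, by limma's test of the difference between both differences (log2 scale, EBSS minus full medium). Most genes were called in this test: of all 12653 tested, 64.2% were positive and 12.5% negative. Rbbp5 was higher in labelled KO than in labelled wildtype in EBSS as deposited (0.99) and did not differ detectably there with median-of-ratios (0.07) or quantile normalization (0.02), so these values rest on labels in doubt.

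Among fibrillar genes the difference was 8.44 for Col5a3, 8.33 for Col3a1, 5.66 for Col27a1, 5.21 for Col11a1, 4.55 for Col1a1, 2.97 for Col1a2, 2.53 for Col5a1, 2.08 for Col5a2 and 0.63 for Col11a2. Type VI chains had 7.59 for Col6a3, 4.78 for Col6a2 and 3.66 for Col6a1. Basement membrane chains had 2.72 for Col4a6, 2.69 for Col4a5, 0.98 for Col4a1 and 0.62 for Col4a2. The other collagens had 5.16 for Col8a1, 4.39 for Col28a1 (listed at 0 in replicates 2 and 3 of labelled wildtype, EBSS), 3.22 for Col16a1, 3.10 for Col23a1, 2.40 for Col20a1, 2.21 for Col12a1, 2.16 for Col7a1 and −1.87 for Col10a1, which passed the filter only through KO, full medium, so its value is a description. In 22 of the 24 the sign of the genotype difference was opposite in the media, though the difference in full medium of Col4a1 (−0.29) and that in EBSS of Col10a1 (−0.25) did not pass. The share of all genes with opposite signs was not counted. The exceptions were Col4a2, with 0.15 and 0.76, and Col11a2, with −1.15 and −0.52. With median-of-ratios scaling 23 collagen genes were called, where 34% of all genes were positive and 32.8% negative. The interactions of Col4a1, Col4a2 and Col11a2 turned to −0.17, −0.53 and −0.35. Of these Col4a2 still passed, now as negative, and Col4a1 had the same sign in both media, with −0.10 and −0.27.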

How the results depend on the processing

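TPM without read depth and 3 libraries per group limit the precision, and the scaling moved the median of all genes: EBSS comparisons with the labelled wildtype group had medians of 0.91, −0.94 and −0.73 as deposited and 0.09, −0.09 and −0.05 with median-of-ratios scaling. Of the single-gene results under all alternatives 3573 were unchanged in call, 75 lost the call, 27 gained one and 22 reversed in sign. A sign that changed without a call in either fit counts among the 3573. The cause of each change named here was not tested.

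Without ribosomal protein genes the collagen share of TPM was 0.508% in wildtype and 0.186% in KO, full medium, and 0.167% in labelled wildtype, EBSS (0.435%, 0.155% and 0.114% with them). For labelled wildtype in EBSS against KO in full medium, 12 genes were lower as deposited, 19 with no filter (43 collagen genes tested, against 26), 5 with median-of-ratios scaling and 5 with quantile normalization. Of all genes tested 8032 of 12653, 9082 of 20258, 4207 of 12653 and 4290 of 12653 were lower, in that order. A fit over only 6 libraries called 1 gene lower, Col4a5, for labelled KO in EBSS against wildtype in full medium. The interaction was not refitted on 6 libraries.

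For labelled wildtype in EBSS against KO in full medium, median-of-ratios and quantile normalization turned Col1a1 to 0.43 and 0.07, Col3a1 to 0.04 and 0.00, Col4a5 to 0.07 and 0.12, Col5a1 to 0.54 and 0.37, Col7a1 to 0.50 and 0.51 and Col16a1 to 0.54 and 0.51, and the first turned Col4a1 to 0.15. Median-of-ratios scaling turned Col4a1 and Col4a2 to −0.27 and −0.20 between the EBSS groups, to 0.05 and 0.26 for EBSS against full medium in labelled wildtype, and to −0.17 and −0.53 in the interaction. The interaction of Col11a2 turned to −0.35, or −1.01 with quantile normalization. Rbbp5 turned to 0.05 for EBSS against full medium in labelled wildtype with quantile normalization.

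Leaving out 1 library at a time gave 19 to 22 genes lower for KO against wildtype in full medium, 22 to 23 higher between the EBSS groups, 21 to 23 lower and 18 to 20 higher for EBSS against full medium in labelled wildtype and labelled KO, 23 in each fit of the interaction, 0 lower for labelled KO in EBSS against wildtype in full medium, and 10 to 13 lower for labelled wildtype in EBSS against KO in full medium. In the same order and directions, the counts over all 12653 tested genes were 3855 to 5404, 8804 to 9397, 8694 to 9354 and 3534 to 5097. They were 7809 to 8543 for the interaction, and 3 to 126 and 7564 to 8292 for the exchanged pairs. Same-numbered libraries did not deviate together (r from −0.07 to 0.08), which does not exclude that the numbers pair them. With the replicate block the counts in the same order were 21, 22, 22, 19, 23, 0 and 13, beside 4446, 9038, 9034, 4134, 8071, 2 and 7990 of all tested genes. The block changed the call of Col5a1 (−0.28, adjusted p = 0.035, labelled wildtype in EBSS against KO in full medium) and of Col18a1 (adjusted p = 0.053, EBSS against full medium in labelled wildtype).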
